A study of Mus musculus with 3 samples.

Results

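The 10 genes described here encode transcription factors of the quiescent, naive state of T cells: Tcf7, Lef1, Foxo1, Foxp1, Klf2, Klf3, Bach2, Satb1, Id3 and Ets1. They were picked by symbol, with earlier results of these data known but with no measured value in the rule, and were found as 10 of the 50600 gene rows of each table, 21764 of which are protein-coding. The study measured total RNA in mouse T-helper 1 cells, a CD4 T cell subset, in 1 group of 3 biological replicates. The mice were C57BL/6NJ and the cells primary, with no treatment or genetic change given in the labels, age unknown and sex not collected, and the labels point to a protocol for differentiating CD4 T cells. A tag of 16 hr appears in the headers of the files and is not explained by the labels. There is no naive, resting or other comparison group, so levels were set within each library and against the spread between the 3 libraries, with no test between conditions. Nothing in the labels or file headers says whether the 3 samples came from separate cultures or animals. Their labels share a donor record, while their counts on sex-linked genes differ, as given below.

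T cells that have not met antigen rest in a small, non-dividing state that is actively maintained. TCF-1 (the product of Tcf7) and LEF-1 are HMG-box factors that set up and keep T cell identity, and FOXO1 drives the genes for lymph node homing and survival that mark naive cells. FOXP1 and KLF2 hold cells in quiescence, BACH2 restrains effector programmes, SATB1 organises chromatin in developing and naive T cells, ID3 blocks E proteins, and ETS1 is a lymphoid ETS factor. On activation several of these genes are known to be turned down, while factors such as MYC and IRF4 are turned up.

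The total count was 4764598, 2568928 and 2815439 in replicates 1, 2 and 3, of which the 10 genes held 6041, 2831 and 2610. All 10 genes of the T cell marker list had at least 1 TPM (a level per transcript, from counts scaled by gene length and then to a fixed sum per library) in every library, with a summed level of 2014, 1511 and 964 TPM. B cell markers summed to 8.62, 0 and 7.46 TPM, and 0 of 8 reached 1 TPM in every library, with Pax5 and Ebf1 at 0 counts. Of the lists for macrophages and monocytes, dendritic cells, and CD8 and NK cells, 2, 0 and 1 of 8 markers did, namely Csf1r and Cd68, and Cd8b1, while Lyz2, Itgax and Ncr1 were at 0 counts. Those 3 lists summed to 125, 113 and 140 TPM, to 1.16, 4.803 and 0.719 TPM and to 29.7, 9.82 and 15.8 TPM in replicates 1, 2 and 3, and Csf1r, whose exons are overlapped on the opposite strand by Hmgxb3, made up most of the first. The part of other cell types in the levels of the 10 genes was not tested. Tbx21, the T-helper 1 regulator, had 2, 10 and 2 counts, so that defining marker was near 0. The replicates differed in sex-linked genes, with 807, 1110 and 4 counts on Xist and 161, 0 and 81 on the Y-linked Ddx3y in replicates 1, 2 and 3. The part of sex in the spread between the libraries was not tested. mt-Nd6, on the mitochondrial strand opposite to mt-Co1, stood 6.40-fold, 10.3-fold and 24.5-fold above it in counts per kilobase, and mt-Co2 had 0 counts in each library. The strand that the library kit marks is not given in the sources used here, so it is not known whether the counting took the strand of each gene or the opposite one. If it took the opposite one, every level below, those at or near 0 included, would stand for reads of the other strand. Its part in these levels was not tested, and a count of 0 need not mean that a gene is silent. In bulk RNA, fewer cells that express a gene and less RNA per cell cannot be told apart.

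The start regions of Lef1, Klf3 and Satb1 lie wholly inside exons of a gene annotated on the opposite strand, so the windows of these 3 genes are shown. The window of Foxo1 lies outside any opposite-strand gene and is shown beside them because the antisense gene Gm20402, transcribed toward it, ends 99 bases after the first base of Foxo1. Each holds 250 bases before to 50 bases after a RefSeq transcript start (GRCm38.p6, the build also called mm10), 5′ to 3′ on the strand of the gene. They are chr3:131110073-131110372 (plus strand) for Lef1, chr3:52268087-52268386 (plus) for Foxo1, chr5:64803271-64803570 (plus) for Klf3 and chr17:51833241-51833540 (minus) for Satb1. Capitals mark every match to the 6 motifs searched below.
Lef1: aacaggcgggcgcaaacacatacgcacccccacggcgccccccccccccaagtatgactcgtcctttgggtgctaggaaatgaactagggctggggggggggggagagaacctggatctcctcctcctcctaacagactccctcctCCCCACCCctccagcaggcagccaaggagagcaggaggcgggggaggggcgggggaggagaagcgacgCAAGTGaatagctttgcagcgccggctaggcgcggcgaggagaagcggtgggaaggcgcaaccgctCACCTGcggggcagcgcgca
Foxo1: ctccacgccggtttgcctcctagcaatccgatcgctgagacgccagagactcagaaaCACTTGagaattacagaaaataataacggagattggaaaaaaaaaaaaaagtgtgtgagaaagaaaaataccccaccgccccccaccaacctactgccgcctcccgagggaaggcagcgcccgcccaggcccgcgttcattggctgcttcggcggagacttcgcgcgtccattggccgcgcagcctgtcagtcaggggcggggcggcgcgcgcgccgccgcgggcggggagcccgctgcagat
Klf3: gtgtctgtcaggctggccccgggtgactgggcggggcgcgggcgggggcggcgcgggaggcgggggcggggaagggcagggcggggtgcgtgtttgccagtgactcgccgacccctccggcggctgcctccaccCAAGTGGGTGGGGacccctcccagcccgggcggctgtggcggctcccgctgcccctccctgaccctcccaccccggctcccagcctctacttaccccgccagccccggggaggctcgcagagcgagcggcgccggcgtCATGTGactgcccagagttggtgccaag
Satb1: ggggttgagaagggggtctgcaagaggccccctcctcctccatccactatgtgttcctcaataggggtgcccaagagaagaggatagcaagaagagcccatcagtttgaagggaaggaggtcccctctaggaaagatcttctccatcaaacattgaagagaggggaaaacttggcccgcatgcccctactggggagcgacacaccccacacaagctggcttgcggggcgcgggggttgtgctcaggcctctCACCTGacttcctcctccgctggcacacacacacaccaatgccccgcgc

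Motifs of the factors themselves were searched on both strands in the window nearest the start of each of the 9 members with an entry. The KLF motif CCNCACCC was found in 4 of 9, those of Tcf7, Lef1, Foxp1 and Klf3, against 16.6% of all 32851 windows of that length. The E-box CANNTG, the site of the E proteins that ID3 blocks, was found in 6 of 9 against 72.3%. The LEF/TCF motif CTTTGA (16.0% of all windows) and the ETS motif CCGGAAG (8.86%) were each found in 1 window, that of Bach2, whose RefSeq start lies 178631 bases from the first base of Bach2 in the deposited table. The forkhead motif GTAAACA (3.65%) and the BACH and AP-1 motif TGANTCA (7.81%) were found in 0 of 9. In the Klf3 window an E-box and a KLF match share 1 base. The median G and C content was 61.3% in these 9 windows and 52.7% in all windows, so the shares above are not matched for composition. The part of composition in the KLF matches was not tested. A match describes letters only and does not show that a factor binds there.

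All 10 factors had at least 1 TPM in every library, the threshold used here for a detected gene, as did 39.8% of the 21764 protein-coding genes. Tcf7 was the highest, at a mean of 193 TPM, and Klf3 the lowest, at 3.98 TPM. The median of log2(TPM + 1) over the 10 genes exceeded that of the 8668 detected protein-coding genes by 0.64 ± 0.07 (SD, n = 3). The middle of the list therefore lay above the middle of detected coding genes in each library, at 26.2 against 16.8 TPM in replicate 1, 23.7 against 15.2 in replicate 2 and 16.7 against 9.71 in replicate 3.

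Tcf7 (ENSMUSG00000000782.15), on chromosome 11 from 52252371 to 52283014 (mm10, minus strand), encodes TCF-1. It had 1441, 571 and 683 counts, or 243, 171 and 164 TPM, in replicates 1, 2 and 3 (mean 193 ± 44.2; SD, n = 3). It held rank 1 of the 10 in every library and stood above 95.2% ± 0.81 of detected protein-coding genes. Lef1 (ENSMUSG00000027985.14), its close relative, lies on chromosome 3 from 131110471 to 131224356 (plus strand). Lef1 had 567, 235 and 260 counts, or 28.6, 21.0 and 18.6 TPM (mean 22.7 ± 5.23). Per kilobase, Tcf7 exceeded Lef1 by 8.51-fold, 8.13-fold and 8.79-fold, a log2 ratio of 3.08 ± 0.06. Its size rests on the exon lengths, 2625 bases for Tcf7 and 8788 for Lef1, and in counts not scaled by length the log2 ratio was 1.34.

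Among the forkhead genes, Foxp1 was above Foxo1 in every library. Foxo1 (ENSMUSG00000044167.6; chromosome 3 from 52268336 to 52353221, plus strand) had 197, 64 and 51 counts, or 10.1, 5.79 and 3.70 TPM (mean 6.53 ± 3.25; SD, n = 3). Foxp1 (ENSMUSG00000030067.17; chromosome 6 from 98925338 to 99522721, minus strand) had 739, 463 and 325 counts, or 23.8, 26.4 and 14.9 TPM (mean 21.7 ± 6.06). It was 2.36-fold, 4.56-fold and 4.02-fold above Foxo1 per kilobase, a log2 ratio of Foxo1 to Foxp1 of -1.81 ± 0.50, or -2.48 in counts not scaled by length. The gap was smallest in replicate 1, the library in which Foxo1 was highest. Exons of Foxp1 share 300 bases with Gm20696 on the same strand, where fragments that fit both genes could go to neither.

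The Kruppel-like genes were among the lowest. Klf2 (ENSMUSG00000055148.7; chromosome 8 from 72319033 to 72321656, plus strand), a regulator of T cell trafficking and quiescence, had 31, 15 and 16 counts, with exact 95% Poisson intervals of 21.1 to 44, 8.40 to 24.7 and 9.15 to 26. That is 7.44, 6.37 and 5.45 TPM (mean 6.42 ± 1.00; SD, n = 3), the highest in replicate 1. Klf3 (ENSMUSG00000029178.14; chromosome 5 from 64803388 to 64832901, plus strand), a repressor of the same family, had 146, 47 and 52 counts, or 5.76, 3.28 and 2.91 TPM (mean 3.98 ± 1.55). The ratio of Klf2 to Klf3 per kilobase was 1.29, 1.94 and 1.87, with 95% counting intervals of 0.847 to 1.91, 1.01 to 3.54 and 0.998 to 3.33. In replicates 1 and 3 the interval holds 1, so there the genes were not told apart at this depth. Over summed counts the ratio was 1.54, with a 95% counting interval of 1.15 to 2.04. In counts not scaled by length the order was the reverse, with a log2 ratio of -1.86 ± 0.33 against 0.74 ± 0.33 per kilobase, since Klf3 has 11243 exon bases and Klf2 has 1847. Their order thus rests on the deposited lengths, which count every annotated exon base.

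Bach2, Satb1, Id3 and Ets1 belong to families of their own. Id3 (ENSMUSG00000007872.3; chromosome 4 from 136143497 to 136145755, plus strand) had 366, 165 and 143 counts, or 90.6, 72.2 and 50.2 TPM (mean 71.0 ± 20.2; SD, n = 3), rank 2 of the 10 in every library. Ets1 (ENSMUSG00000032035.15; chromosome 9 from 32636221 to 32757820, plus strand) had 1070, 493 and 487 counts, or 56.0, 45.6 and 36.1 TPM (mean 45.9 ± 9.93), rank 3 in every library. Both stood high among detected protein-coding genes, Id3 above 86.6% ± 1.07 and Ets1 above 80.02% ± 1.37 of them. Bach2 (ENSMUSG00000040270.16; chromosome 4 from 32238804 to 32586108, plus strand) had 817, 434 and 347 counts, or 36.5, 34.2 and 22 TPM (mean 30.9 ± 7.81), rank 4 in every library. Satb1 (ENSMUSG00000023927.15; chromosome 17 from 51736187 to 51833290, minus strand) had 667, 344 and 246 counts, or 15.5, 14.2 and 8.13 TPM (mean 12.6 ± 3.95), rank 7 in every library. Satb1 stood near the middle, above 46.5% ± 1.75 of detected protein-coding genes, and its exons share 156 bases with Gm36931 on the same strand.

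**Figure D1:**
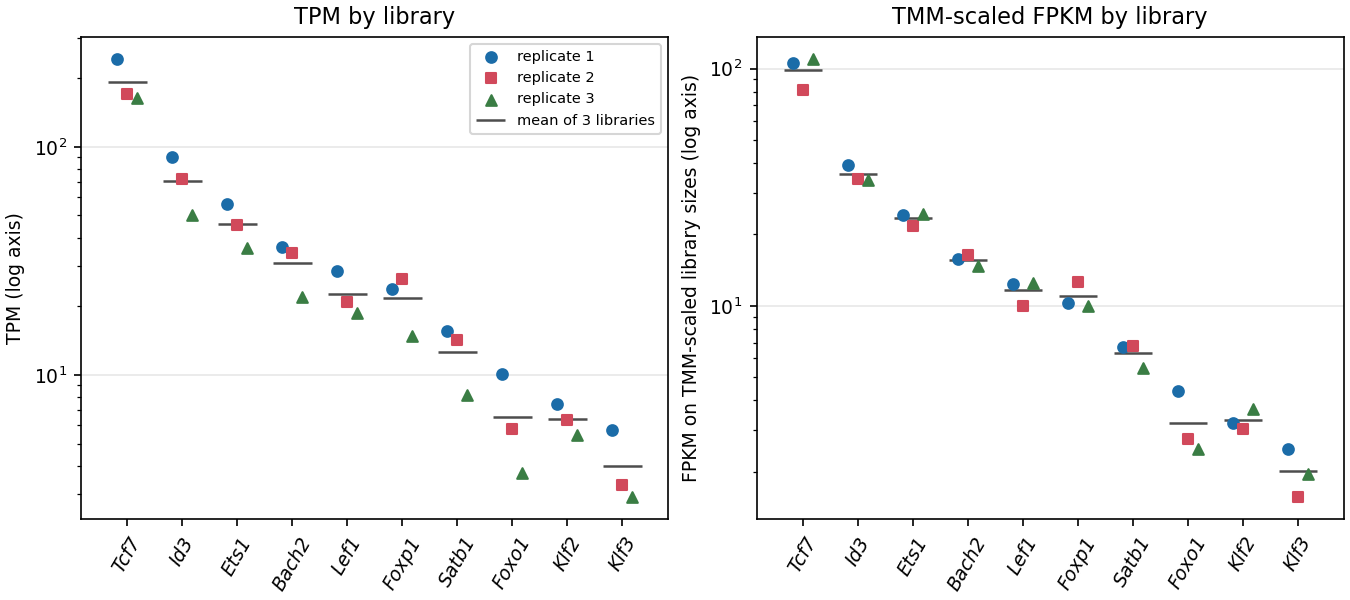
Levels of the 10 genes in replicates 1 (circles), 2 (squares) and 3 (triangles), as TPM (left) and as FPKM on TMM-scaled library sizes (right), both on log axes, with the mean of 3 libraries as a line. Tcf7 is highest and Klf3 lowest on both scales, and the triangles of replicate 3 are lowest throughout on the left and for 5 of 10 genes on the right.

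By mean TPM the order was Tcf7, Id3, Ets1, Bach2, Lef1, Foxp1, Satb1, Foxo1, Klf2 and Klf3. Of the 9 pairs of neighbours, 7 kept their sign in all libraries with a mean log2 ratio above its SD. Klf2 and Klf3 are among the 7, although the counting intervals of their ratio hold 1 in replicates 1 and 3. Lef1 and Foxp1 did not differ beyond their spread (log2 ratio 0.09 ± 0.36; SD, n = 3), nor did Foxo1 and Klf2 (-0.09 ± 0.50). The widest step was from Tcf7 to Id3, at 2.74-fold, and the next from Satb1 to Foxo1, at 2.02-fold. In CPM (counts scaled by library but not by length), which does not compare levels between genes, the order was Tcf7, Ets1, Bach2, Foxp1, Satb1, Lef1, Id3, Foxo1, Klf3 and Klf2. Id3, one of the shortest genes, moved furthest. Ranks per kilobase were the same in all 3 libraries for 6 genes, Tcf7, Id3, Ets1, Bach2, Satb1 and Klf3, and the other 4 moved by 1 place.

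In TPM, replicate 3 was the lowest library for all 10 genes and replicate 1 the highest for 9, Foxp1 being the exception with its highest value in replicate 2. The same held for 72.9% and 57.7% of detected protein-coding genes, so the shift was not limited to these 10 genes. Genes with no exon inside an opposite-strand gene held 31.1%, 28.3% and 17.9% of all TPM in replicates 1, 2 and 3. The part of that share in the shift was not tested. Over protein-coding genes with a mean of at least 1 TPM, the median deviation from the mean log2(TPM + 1) of the gene was 0.32, 0.11 and -0.41 in replicates 1, 2 and 3, and over the 10 genes it was 0.33, 0.01 and -0.38. With library sizes scaled by TMM (trimmed mean of M values), replicate 3 was lowest for 5 genes and replicate 2 for the other 5, while replicates 1, 2 and 3 were highest for 3, 3 and 4. No direction between libraries is therefore given for these genes as a set.

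After TMM scaling the spread between libraries differed among the 10 genes. The coefficient of variation (CV, the SD as a percentage of the mean) of the scaled counts had a median of 11.9% over the 10 and 27.0% over the 9466 genes fitted with edgeR. Bach2 was the steadiest, at 15.8, 16.3 and 14.8 FPKM and a CV of 4.98%, against 4.33% that counting alone gives at its depth. Ets1 (6.28%), Id3 (8.28%) and Klf2 (9.84%) were also below 10%. For Klf2 the low depth alone gives 22%, so its values cannot show a smaller spread. Foxo1 varied most, at 4.36, 2.76 and 2.49 FPKM and a CV of 31.6%, followed by Klf3 at 2.49, 1.56 and 1.96 FPKM and 23.3%. Both were highest in replicate 1. Tcf7 had a CV of 15.6%, or 4.69 times what counting alone gives, with replicate 2 the lowest at 81.2 FPKM against 105 and 110.1. Of the 10 genes, 9 had a gene-wise biological coefficient of variation (edgeR, no sharing of information between genes) below the median of all fitted genes, below which 50.0% lie. The 9 include Bach2 and Klf2, which lay at the lower limit of the estimate, 0.039. At that limit lay 1144 of the 9466 fitted genes. The median was 0.105 for the 10 genes and 0.244 for all fitted genes. It fell to 0.0661 without replicate 1 and to 0.0401 without replicate 2, so its size rests on which libraries enter.

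**Figure D2:**
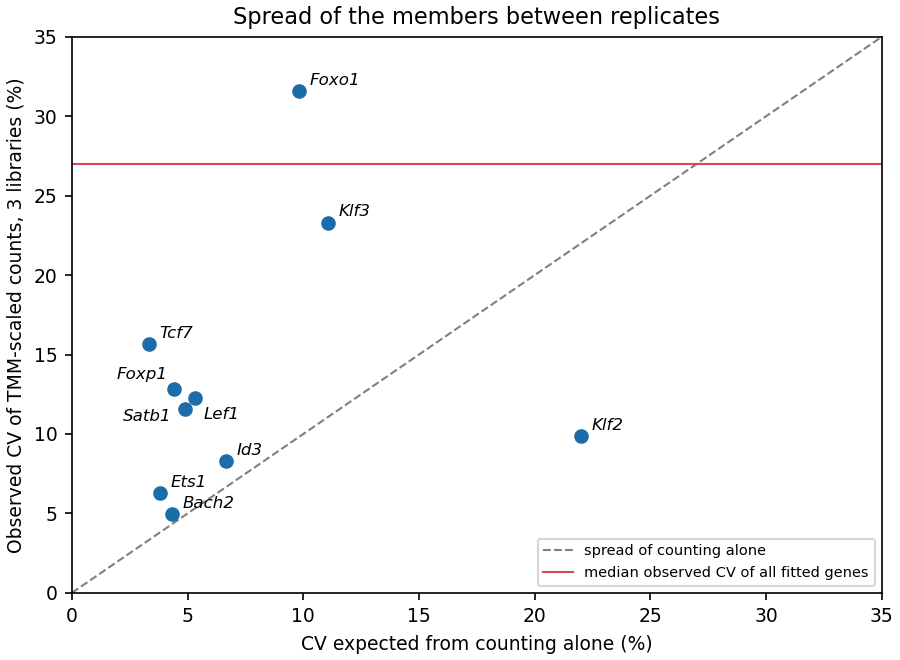
Observed CV of TMM-scaled counts over 3 libraries (vertical, %) against the CV that counting alone gives at the mean count (horizontal, %), 1 point per gene. The dashed line marks equality and the horizontal line the median observed CV of all fitted genes (27.0%). Foxo1 alone lies above that line, and Klf2 alone lies well under the dashed line.

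Exons of 5 of the 10 genes, Lef1, Foxo1, Klf3, Bach2 and Satb1, are overlapped by exons of the opposite strand, as are 22.1% of protein-coding genes and 34.5% of the detected ones. In 4 of these 5 the opposite-strand gene had more counts per kilobase than the factor in every library. That was the case for 43.1% of all overlapped protein-coding genes, for 53.0% of the detected ones, and for 69.3% of detected ones overlapped by a noncoding gene, so the count here does not set the 5 genes apart.

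The widest contrast was at Foxo1. Gm20402, annotated as antisense, lies on chromosome 3 from 52268435 to 52269435, and 674 of its 687 exon bases are inside the first exon of Foxo1. Gm20402 had 430, 134 and 613 counts against 197, 64 and 51 for Foxo1 in replicates 1, 2 and 3. Per kilobase it was 27.5-fold, 26.4-fold and 152-fold above Foxo1. The 2 genes moved apart in replicate 3, where Gm20402 was highest and Foxo1 lowest.

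Bach2os, annotated as antisense to Bach2, lies on chromosome 4 from 32559680 to 32571708, within the body of Bach2, with 537 of its 2183 exon bases shared. It had 3087, 1524 and 2788 counts against 817, 434 and 347 for Bach2. Per kilobase Bach2os was 17.2-fold, 16.0-fold and 36.6-fold above Bach2. At 659 TPM ± 131 (SD, n = 3) it also exceeded Tcf7, the highest of the 10 factors.

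Gm43352, which runs across the start of Lef1 on chromosome 3 from 131109026 to 131112090, shares 1208 exon bases with it, or 13.7% of the exon bases of Lef1. It had 529, 174 and 531 counts, 2.68-fold, 2.12-fold and 5.86-fold above Lef1 per kilobase. Gm20033 on chromosome 5 from 64708207 to 64804117 overlaps the first exon of Klf3 by 404 bases. It had 139, 41 and 178 counts, 3.43-fold, 3.14-fold and 12.3-fold above Klf3 per kilobase. In all 4 pairs the opposite-strand gene gained most on the factor in replicate 3, the library in which mt-Nd6 also stood highest above mt-Co1.

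**Figure D3:**
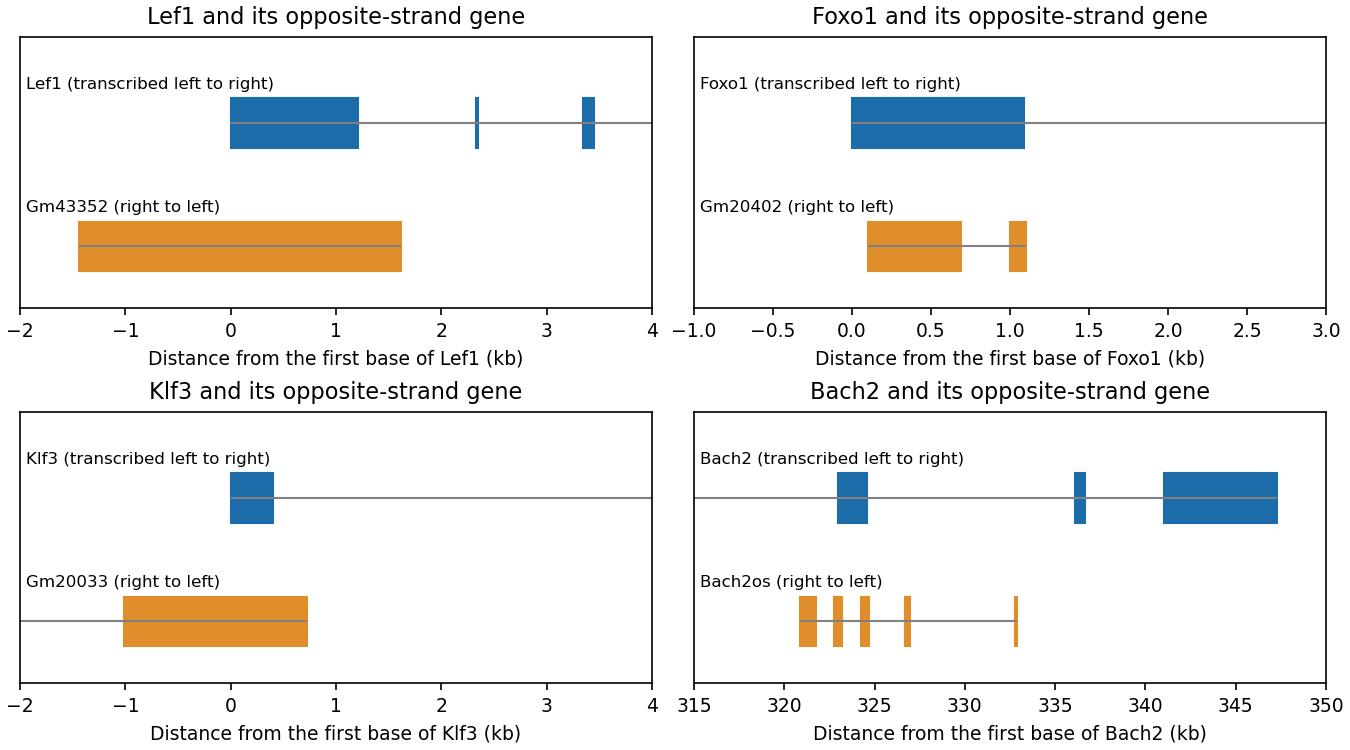
Exons (boxes) of Lef1, Foxo1, Klf3 and Bach2 and of the opposite-strand gene at each, by distance in kilobases from the first base of the factor. Gm43352 and Gm20033 run across the first base, Gm20402 lies over the first exon of Foxo1, and the nearest end of Bach2os lies 320876 bases into Bach2.

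Satb1 went the other way. Gm6934, an unconfirmed transcript model across its start on chromosome 17 from 51832819 to 51834723 that shares 128 exon bases, had 18, 0 and 22 counts against 667, 344 and 246 for Satb1. Per kilobase Gm6934 stood at 9.45, 0 and 11.5 counts and Satb1 at 35.1, 18.1 and 12.9, so that the gap was small in replicate 3. Tcf7 and Ets1 hold an opposite-strand gene in their bodies with no shared exon bases. A630014C17Rik, which runs across the start of Tcf7, had 57, 11 and 68 counts, and Gm27240, inside Ets1, had 1, 4 and 8. Both were below the factor in every library. Foxp1 has only same-strand genes in its body, and Klf2 and Id3 have none.

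**Figure D4:**
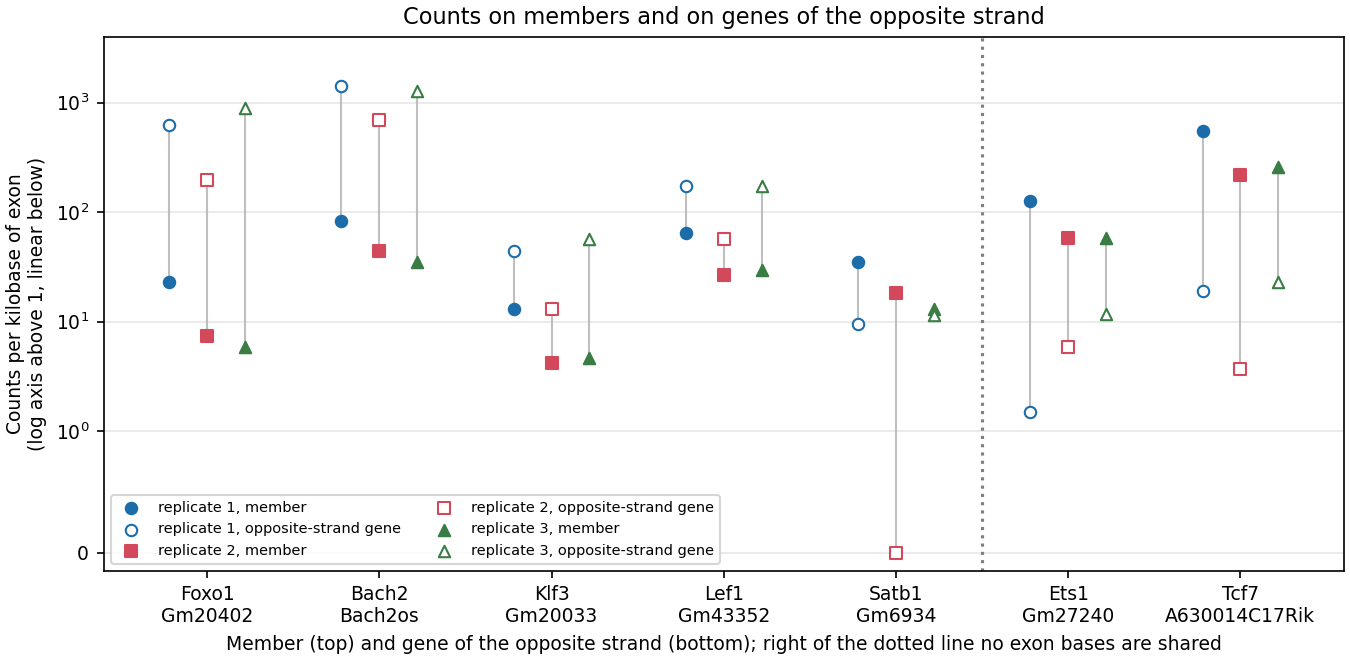
Counts per kilobase of exon for 7 factors (filled) and for the gene of the opposite strand at each (open), by library, on an axis that is logarithmic above 1 and linear below. Open symbols lie above filled ones for Foxo1, Bach2, Klf3 and Lef1, and below them for Satb1 and for Ets1 and Tcf7, which share no exon bases with the opposite-strand gene.

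Foxp1, Klf2, Id3 and Ets1 have no exon inside an opposite-strand gene. With TPM recomputed over such genes alone, which lie on a larger scale, Id3 had 291, 255 and 280 TPM, Ets1 180, 161 and 201, Foxp1 76.6, 93.1 and 82.8, and Klf2 23.9, 22.5 and 30.4 in replicates 1, 2 and 3. The order of these 4 was the same in each library and the same as in TPM over all genes. Replicate 3 was no longer the lowest for Ets1, Foxp1, Id3 or Klf2.

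As a list, relatives of the same families had a lower median, which did not hold family by family. In every library Foxo4 was above Foxo1, Foxp3 and Foxp4 above Foxp1, and Gabpa above Ets1. Klf6, Klf10 and Klf13 were likewise above Klf3, and Foxo3 was above Foxo1 in replicates 2 and 3. The listed relatives of Tcf7, Bach2, Satb1 and Id3 were below them in every library. Foxo3, Foxo4, Klf6, Klf10 and Klf13 were named after their values were seen. Of 23 such genes 13 were detected, 6 were under 1 TPM in every library and 4 were mixed, with a median of 4.87 TPM against 22.2 TPM for the 10 factors and 14.1 TPM for detected protein-coding genes. Id2, which like Id3 blocks E proteins and is known for effector T cells, had 17, 0 and 6 counts. Id3 was 15.3-fold and 16.9-fold above Id2 per kilobase in replicates 1 and 3, and at least 39.0-fold in replicate 2, where the 0 was taken as 3 counts in that library. Over summed counts the ratio was 20.8-fold, with an exact 95% counting interval of 13.7 to 33.0. Both Id genes are free of opposite-strand overlap.

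Bach1, the broadly acting relative of Bach2, had 23, 2 and 11 counts. Bach2 was 22.1-fold, 135-fold and 19.6-fold above it per kilobase, the value of replicate 2 resting on 2 counts with an interval of 37.1 to 1117. Over summed counts the ratio was 27.6-fold (19.8 to 39.5). The highest relatives were Foxp3 (125 TPM ± 29.6; SD, n = 3), a regulatory T cell factor, the ETS genes Gabpa (84.5 ± 31.5) and Elf1 (29.2 ± 5.54), and Foxp4 (38.5 ± 3.95). Of these only Foxp4 is free of opposite-strand exons. Tcf7l2 and Foxp2 were at 0 counts throughout, for which the floor of 3 counts corresponds to 0.269 and 0.144 TPM in the library with the highest floor. The 4 mixed relatives, Tcf7l1, Klf7, Bach1 and Id2, were named after their values were seen.

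Among the proteins that work with these factors, 12 of 14 genes passed 1 TPM in every library, and the list had a median of 12.7 TPM. Ldb1, a LIM-domain-binding adaptor, had 76.2 TPM ± 18.5 (SD, n = 3) and the deacetylase gene Hdac1 61.9 ± 14.2. The RUNX partner Cbfb had 48.7 ± 19.1 and the corepressor Ctbp1 46.1 ± 14.9. Of these only Ldb1 has exons overlapped by exons of the opposite strand. Tcf4, an E protein gene, was under 1 TPM in every library, and Ctbp2, which was not picked by the rule for names but for its values, had 1, 23 and 3 counts.

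Surface and homing genes of the naive state fell into a high and a low set. There were 9 of 12 detected, and the median was 16.4 TPM. The lymph node homing receptor Ccr7 had 190 TPM ± 62.8 (SD, n = 3) and the actin cross-linker Actn1 69.8 ± 23.05. Dapl1 had 66.3 ± 30.7 and the costimulatory receptor Cd27 48.3 ± 9.94. Of these, Actn1 has exons overlapped by exons of the opposite strand, and Cd27 has some exon inside an opposite-strand gene. Cxcr4, a chemokine receptor, had 0, 0 and 1 counts. Il7r, the receptor for the survival cytokine of naive cells and a known FOXO1 target, had 8, 0 and 1 counts, and S1pr1, the exit receptor that KLF2 is known to drive, had 15, 6 and 3. Il7r and S1pr1 were named after their values were seen.

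Other genes of quiescence and restraint were detected in 11 of 12 cases, and their median was 6.18 TPM. Slfn2, needed for T cell quiescence, had 204 TPM ± 85.7 (SD, n = 3), and Tsc2, a brake on mTOR, 30.4 ± 5.23. The antiproliferative gene Btg1 had 26.8 ± 12.1 and the inhibitory receptor Vsir 21.6 ± 9.82. Exons of Tsc2 are overlapped by exons of the opposite strand, and it had 24.8, 31.3 and 35.1 TPM in replicates 1, 2 and 3. Slfn2 and Vsir have some exon inside an opposite-strand gene. Foxj1, another forkhead gene, had 0 counts in each library. For it the floor of 3 counts corresponds to 0.897 TPM in the library with the highest floor.

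Factors of activation and effector cells spanned the range of the 10 factors and went both higher and lower. There were 10 of 16 detected, and the median was 22.2 TPM, equal at this precision to that of the 10 factors. Irf4 had 232 TPM ± 77.3 (SD, n = 3), Myc 204 ± 46.2, Junb 122 ± 12.9 and the NF-kB gene Nfkb1 74.0 ± 22.7. Of these only Junb has exons overlapped by exons of the opposite strand. The mean of Tcf7 (193 ± 44.2) lay between those of Myc and Junb and within 1 SD of that of Myc. Prdm1, the effector regulator known to oppose BACH2, had 0 counts in each library. For it the floor of 3 counts corresponds to 0.422 TPM in the library with the highest floor. Zeb2 and Rora were under 1 TPM in every library. Tbx21 and Nfil3, named after their values were seen, were mixed, with 14, 0 and 0 counts for Nfil3.

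**Figure D5:**
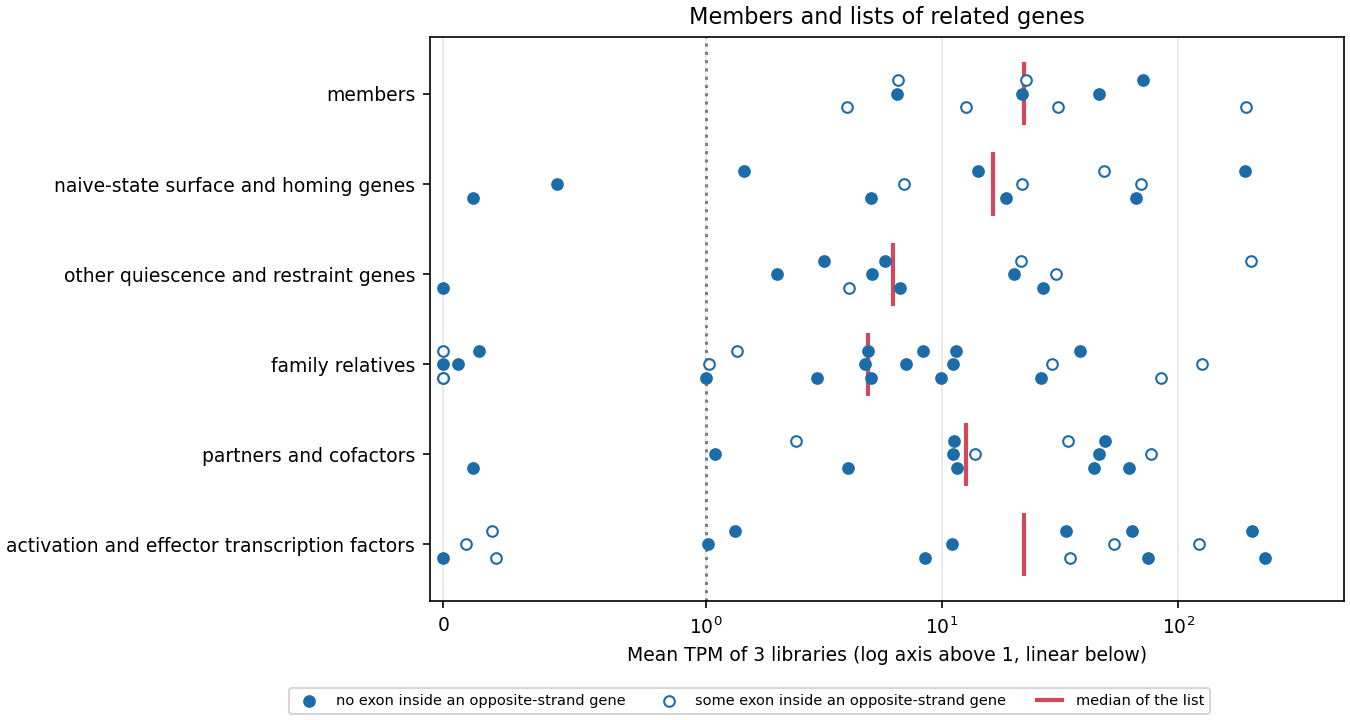
Mean TPM of 3 libraries for the 10 factors and for 5 lists of related genes, 1 point per gene, on an axis that is logarithmic above 1 (dotted line) and linear below, with list medians as bars. Filled points have no exon inside an opposite-strand gene. All 10 factors (top row, labelled members) lie above 1, while each of the other 5 lists holds at least 1 gene below it.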

How the data were processed

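Whole-number counts per gene were deposited for each of 3 libraries. Per the file headers, the authors made these counts by running featureCounts (v1.4.6-p4) on read pairs mapped at both ends, at strand setting 1 and on the exons that GENCODE vM13 gives for mm10, with no option that gives a fragment to more than 1 gene. The deposited gene length, another value per the file headers, counts the merged exon bases. Aligner version and library kit: not given in the sources used here.

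Names and biotypes came from GENCODE vM21 (50376 of 50600 identifiers; all 129 list and member genes found), promoter windows from RefSeq, GRCm38.p6. TPM, counts per kilobase and exon overlaps (at least 1 base) were computed from the deposited tables, with log2(TPM + 1). edgeR 4.0.16 with filterByExpr and TMM gave scaling and gene-wise dispersions, DESeq2 1.42.0 an alternative. The floor for a 0 was set at 3 counts. Intervals are exact at 95% and cover counting error only. No p-value was computed with 1 group.

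The members, lists and rules were chosen with earlier results of these data known. Genes named are the 10 members, the genes that overlap them on the opposite strand, the 4 highest and up to 3 undetected genes of each list, and those of the ratios, except items not reported here; none was named for likeness of pattern, since 3 replicates hold no conditions. The overlap, motif and dispersion steps were tested on simulated data. Tables were handled in pandas 2.3.3 and numpy 2.4.6 under Python 3.11.15, intervals in SciPy 1.17.1, plots in matplotlib 3.10.9, and edgeR ran in R 4.3.3.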

Additional observations from a re-analysis of the deposited data

How the results depend on the processing

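All 10 factors stayed detected with 10 counts in every library as the threshold and with any replicate left out, and 8 did at 5 TPM. Over genes free of opposite-strand overlap the number was 4, because only 4 members are left there. The median level over the detected coding genes rose from 0.64 to 4.18 against all protein-coding genes, most of which are not detected, and to 1.60 over genes free of overlap, where fewer members remain. In raw counts 2 factors, Foxo1 and Bach2, were below their opposite-strand gene in every library, since the opposite-strand genes are shorter. Without length scaling the log2 ratio was 1.34 for Tcf7 to Lef1 and -2.48 for Foxo1 to Foxp1, and for Klf2 to Klf3 it turned from 0.74 to -1.86. With a replicate left out the ratio of Id3 to Id2 ranged from 3.97 to 5.19 on the log2 scale, and the median gene-wise coefficient of variation from 0.0401 to 0.1005; the cause was not tested. In CPM the order of the factors changed, with Id3 and Klf2 lower, and 6 of 9 neighbour pairs stood apart. Levels of single factors moved by more than 1 SD in 32 alternatives, each a change to CPM, to FPKM or to TPM over genes free of overlap, and stayed within 1 SD in 42. No paired analysis was possible because there is 1 group. Depth limits Klf2, Klf3 and Foxo1 most, the genes with the fewest counts.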
